A study of Mus musculus with 8 samples.

Results

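The Hmga2, Lin28 and let-7 axis was examined in flow-sorted bone marrow cells through 9 genes chosen by name: Hmga2, Hmga1, Lin28a, Lin28b, Igf2bp1, Igf2bp2, Igf2bp3, Arid3a and Dicer1. Probe sets of the platform annotation with 1 of these symbols were taken, which gave 8 probe sets for 7 genes, out of 21789 probe sets for 19938 genes with 1 symbol each. Igf2bp1 had 2 probe sets, the other 6 genes had 1 each, and Hmga1 and Igf2bp2 were not analysed here. RNA came from 8 independent preparations, each pooled from 4 or 6 C57BL/6J mice and hybridised to 1 array. The transgenic groups carry the genotype ∆Hmga2 and are called TG in the titles, and the control groups are wild type (WT). Each genotype was sorted into KLS cells, which lack lineage markers, carry c-Kit and Sca-1 and include the blood stem cells, and MEP cells, the progenitors of megakaryocytes and red cells. This gave 2 arrays in each of TG KLS, WT KLS, TG MEP and WT MEP. As background, ∆Hmga2 mice carry an Hmga2 cDNA with a shortened 3′ untranslated region. The sources used here give neither the promoter that drives it nor the number of founder lines nor the age of the mice.

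let-7 microRNAs are small RNAs that rise as tissues mature and silence transcripts with matching sites. Hmga2 encodes a chromatin protein with AT-hooks that bend DNA, is abundant in fetal stem cells and is among the best known let-7 targets. LIN28A and LIN28B bind let-7 precursors and block their processing, Dicer1 encodes the nuclease that cuts the precursors, and let-7 in turn represses Lin28a, Lin28b and Dicer1. Igf2bp1 and Igf2bp3 encode RNA-binding proteins of fetal tissues that stabilise mRNAs, and Arid3a encodes a DNA-binding protein of the ARID family with roles in B cells and in stem cells. In fetal blood stem cells Lin28b keeps let-7 low, which allows Hmga2 expression.

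The let-7 family is shown because its shared seed, bases 2 to 8 of the mature strand in capitals, is what the sites in these transcripts pair with. The sequences are from RefSeq (GRCm38.p6), and 4 of the 9 distinct mature 5p strands are printed.
let-7a: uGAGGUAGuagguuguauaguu
let-7d: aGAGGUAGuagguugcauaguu
let-7i: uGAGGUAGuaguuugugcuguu
miR-98: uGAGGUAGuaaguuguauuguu
All 9 strands kept here had 22 bases and the same seed, and they differed from let-7a at up to 4 positions, the most being in let-7i. The RefSeq rows kept here list these strands under 11 genes, among them Mirlet7a-1 at chr13:48538239-48538260 on the minus strand (mature strand). Of these 11, 9 had a probe set of their own. The counts of strands and genes were made after rows of a chromosome were left out. The shared length and seed therefore hold for the strands kept, and a strand listed only on that chromosome was not compared. Mirlet7a-2, part of the let-7 precursor list below, is not among the 11. A probe set of this kind can detect precursor or host transcripts, and the level of mature let-7 was not measured.

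Hmga2, the targeted gene, was described first. Its probe set (10372796, Entrez gene 15364) was at a log2 level of 7.35 and 7.11 on the TG KLS arrays and at 6.85 and 7.12 on the WT KLS arrays. In MEP cells it was at 6.95 and 6.99 on the TG arrays and at 6.70 and 6.74 on the WT arrays. TG MEP lay above WT MEP on both arrays, while TG KLS 2 and WT KLS 2 were at almost the same level, so that the KLS groups overlapped. As deposited, without quantile normalization, the same 2 arrays were at 7.13 and 7.11, and the TG and WT arrays did not overlap in either cell type. Such separation was common: after quantile normalization, TG and WT arrays did not overlap for 28.8% of all probe sets in KLS and 30.4% in MEP cells.

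**Figure D1:**
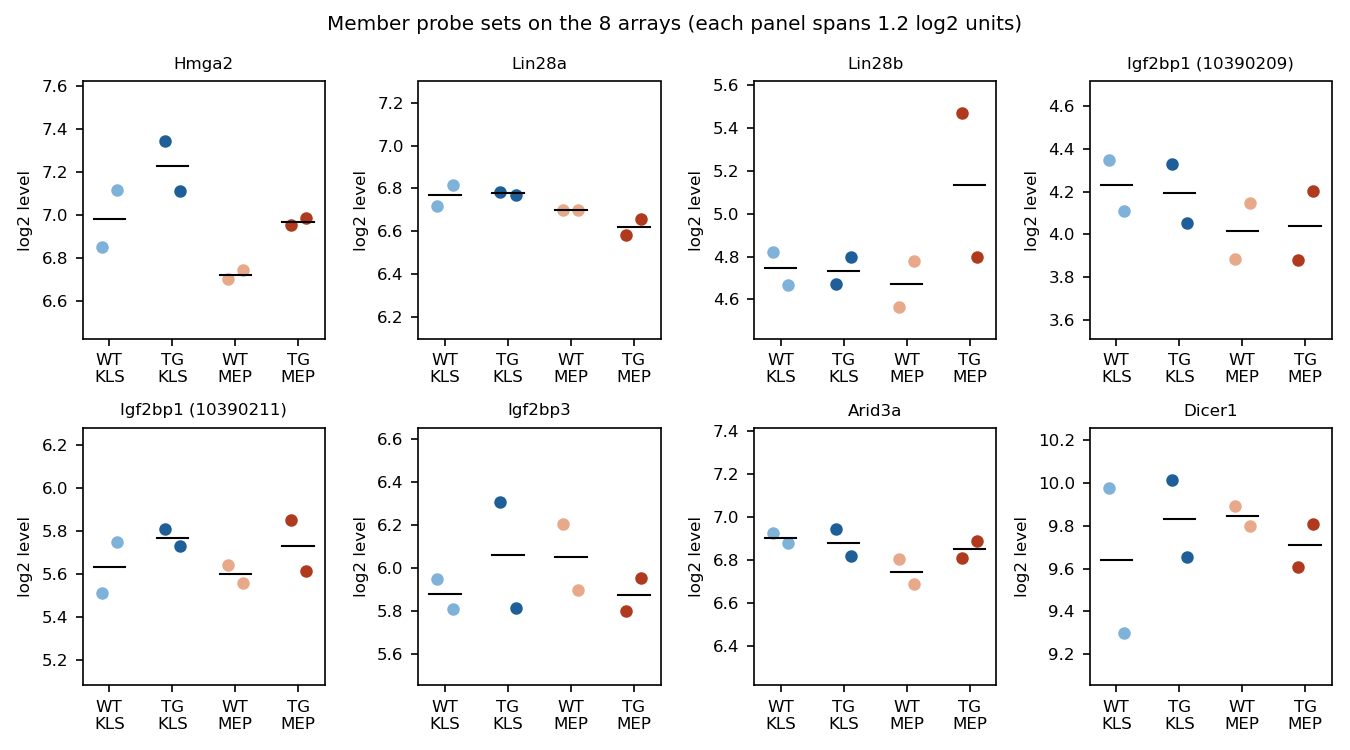
Log2 level (y axis) of each member probe set on the 8 arrays, by group (x axis). Points are arrays, replicate 1 on the left, and bars are the means of 2 arrays. Hmga2 is highest in TG KLS, at a mean of 7.23, and lowest in WT MEP, at 6.72, and for Lin28b the array TG MEP 1 stands alone at 5.47.

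The 4 group means of Hmga2 were ordered TG KLS (7.23 ± 0.17), WT KLS (6.98 ± 0.19), TG MEP (6.97 ± 0.02) and WT MEP (6.72 ± 0.03; SD, n = 2 each). WT KLS and TG MEP, neighbours in this order, did not differ beyond their spread. TG exceeded WT by 0.25 ± 0.15 among KLS arrays and by 0.25 ± 0.15 among MEP arrays (log2, limma SE), a fold of 1.19 in each, with a 95% interval of 0.936 to 1.51. Averaged over both cell types it was 0.25 ± 0.11, a fold of 1.19 (1.00 to 1.41). In limma this had an unadjusted p = 0.0461 and an adjusted p = 0.999 over all probe sets. At an unadjusted p under 0.05 the background of this averaged comparison was 3.17% of probe sets, and of the 8 member probe sets Hmga2 alone was below it. An exact permutation test of the genotype labels within each cell type gave p = 0.111 for Hmga2 (two-sided). It gave 0.0556 with the values as deposited or with each array centred on its median, which is the smallest p its 36 arrangements allow. The sources used here do not say which part of the transcript the probe set covers. A probe set in a part that the shortened gene lacks would not check the genotype labels.

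Hmga2 also had the highest difference between cell types among the members in absolute terms, 0.26 ± 0.11 higher in KLS than in MEP cells. This did not pass limma's threshold of an adjusted p under 0.05 (adjusted p = 0.314). The difference was 0.26 in WT and 0.26 in TG cells, and KLS arrays lay above MEP arrays within each genotype. No share over all probe sets was counted for such separation within a genotype, and over both genotypes the KLS and MEP arrays overlapped. The genotype difference in KLS cells minus that in MEP cells, the interaction, was -0.00035 ± 0.21, with a 95% interval of -0.49 to 0.49. That interval leaves room for a gap between the cell types as large as the genotype difference itself. Under all alternatives of processing tried here, including each array left out, the genotype difference of Hmga2 stayed above 0, from 0.12 to 0.38 in KLS cells and from 0.20 to 0.27 in MEP cells. In MEP cells leaving out an array could not change the sign, since both TG arrays lay above both WT arrays. Some other alternatives leave a difference as it is.

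By the likeness of their levels over the 8 arrays, the 3 genes closest to Hmga2 were Tctex1d2 (Pearson r = 0.902), Ssr4 (0.890) and Septin14 (0.889), out of 7348 candidate probe sets. Ssr4 encodes a subunit of the translocon-associated complex of the endoplasmic reticulum. The 8 arrays share cell types and genotypes, and with so many candidates such values are a description of these arrays only.

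Lin28a and Lin28b encode the proteins that hold back let-7 processing. Lin28a (10517159) was at 6.79 and 6.77 in TG KLS, 6.72 and 6.82 in WT KLS, 6.58 and 6.66 in TG MEP, and 6.70 and 6.70 in WT MEP cells. Its 8 arrays lay within 6.58 to 6.82, and only 3.16% of probe sets had an SD over the 8 arrays as low or lower. All 4 KLS arrays were above all 4 MEP arrays, and the TG MEP arrays were below the WT MEP arrays. Among all probe sets, KLS and MEP arrays did not overlap in 9%, and TG and WT arrays of MEP cells did not in 30.4% (13.4% higher and 17% lower in TG). The KLS minus MEP difference was 0.11 ± 0.09 (limma adjusted p = 0.691). With each array centred on its median, the KLS and MEP arrays of Lin28a overlapped.

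Lin28b (10368981) was at 4.67 and 4.80 in TG KLS, 4.82 and 4.67 in WT KLS, 5.47 and 4.80 in TG MEP, and 4.56 and 4.78 in WT MEP cells. The array TG MEP 1 stood above the other 7, which lay within 4.56 to 4.82. The TG minus WT difference in MEP cells was 0.46 ± 0.22, a fold of 1.38 (95% interval 0.976 to 1.95), the highest genotype difference of any member, and it did not pass (limma adjusted p = 1.00). Without TG MEP 1 it was 0.13, and without TG MEP 2 it was 0.80 (limma adjusted p = 0.569). In KLS cells the difference was -0.01 ± 0.22. The interaction, -0.48 ± 0.31, did not pass either (unadjusted p = 0.160). Lin28b and both probe sets of Igf2bp1 were among the 30% of probe sets with the lowest mean level.

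The fetal RNA-binding proteins were represented by Igf2bp1 and Igf2bp3. The first Igf2bp1 probe set (10390209) was at 4.33 and 4.05 in TG KLS, 4.35 and 4.11 in WT KLS, 3.88 and 4.20 in TG MEP, and 3.88 and 4.15 in WT MEP cells. The second (10390211) was at 5.81 and 5.73 in TG KLS, 5.51 and 5.75 in WT KLS, 5.85 and 5.61 in TG MEP, and 5.64 and 5.56 in WT MEP cells. Genotype groups overlapped in both cell types for both probe sets. With the values as deposited or median centred, the second probe set was higher on both TG MEP arrays than on the WT MEP arrays. The 2 probe sets differed in sign in KLS cells, with TG minus WT at -0.04 ± 0.18 for the first and 0.14 ± 0.15 for the second. The first was at a KLS minus MEP difference of 0.18 ± 0.13 and the second of 0.03 ± 0.11, and neither passed.

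Igf2bp3 (10544610) was at 6.31 and 5.81 in TG KLS, 5.95 and 5.81 in WT KLS, 5.80 and 5.95 in TG MEP, and 6.21 and 5.90 in WT MEP cells. Its highest arrays, TG KLS 1 and WT MEP 1, belonged to groups that differ in both genotype and cell type. By genotype it differed by 0.18 ± 0.19 among KLS arrays and by -0.17 ± 0.19 among MEP arrays, and the interaction was 0.36 ± 0.28 (limma, unadjusted p = 0.231). Between cell types the difference was 0.0058 ± 0.14, the smallest of the 8 in size.

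Arid3a, a transcription factor gene and let-7 target of the fetal programme, was at 6.94 and 6.82 in TG KLS, 6.93 and 6.88 in WT KLS, 6.81 and 6.89 in TG MEP, and 6.80 and 6.69 in WT MEP cells (10364559). Both WT KLS arrays were above both WT MEP arrays, with no share over all probe sets counted, and the TG KLS and TG MEP arrays overlapped. The TG MEP arrays were above the WT MEP arrays by little, and they overlapped with the values as deposited or median centred. The genotype difference was -0.02 ± 0.13 for KLS and 0.10 ± 0.13 for MEP cells, and KLS minus MEP was 0.09 ± 0.09 (limma adjusted p = 0.778). Its SD over the 8 arrays, 0.082, was among the lowest, with 4.85% of probe sets as low or lower.

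Dicer1, whose product makes mature microRNAs from precursors, was at 10.01 and 9.65 in TG KLS, 9.98 and 9.30 in WT KLS, 9.61 and 9.81 in TG MEP, and 9.89 and 9.80 in WT MEP cells (10402444). The WT KLS arrays were far apart and spanned all but 1 of the other arrays. The genotype difference was 0.19 ± 0.23 for KLS and -0.14 ± 0.23 for MEP cells. The first of these was 0.53 without WT KLS 1 and -0.15 without WT KLS 2. KLS minus MEP was -0.04 ± 0.16.

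None of the 8 member probe sets passed limma's threshold in any of the 5 comparisons. Of all probe sets, 0% passed for genotype in KLS cells, 0% for genotype within MEP cells, 0% for its average over both and 0% for the interaction. Between KLS and MEP cells 0.822% passed, or 179 probe sets, with 0.629% higher and 0.193% lower in KLS cells. This count was 1 without either TG MEP array and 626 without WT MEP 1. At an unadjusted p under 0.05, 0 members were found by genotype in KLS cells (background 2.6%), 0 in MEP cells (background 3.47%) and 0 for the interaction (background 2.33%). Between the cell types 1 was found, Hmga2, against a background of 14%. The members' median genotype difference was 0.07 for KLS and 0.06 for MEP cells, against -0.01 and -0.0066 over all probe sets. Between cell types it was 0.06, against 0.01. Of the 8 genotype comparisons in KLS cells 0 had groups that did not overlap (background 28.8%), and in MEP cells 4 had (background 30.4%), Hmga2, Lin28b and Arid3a as higher and Lin28a as lower in TG. As deposited or median centred, Hmga2 did not overlap in KLS cells, and in MEP cells Arid3a overlapped while Igf2bp1 (10390211) did not.

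**Figure D2:**
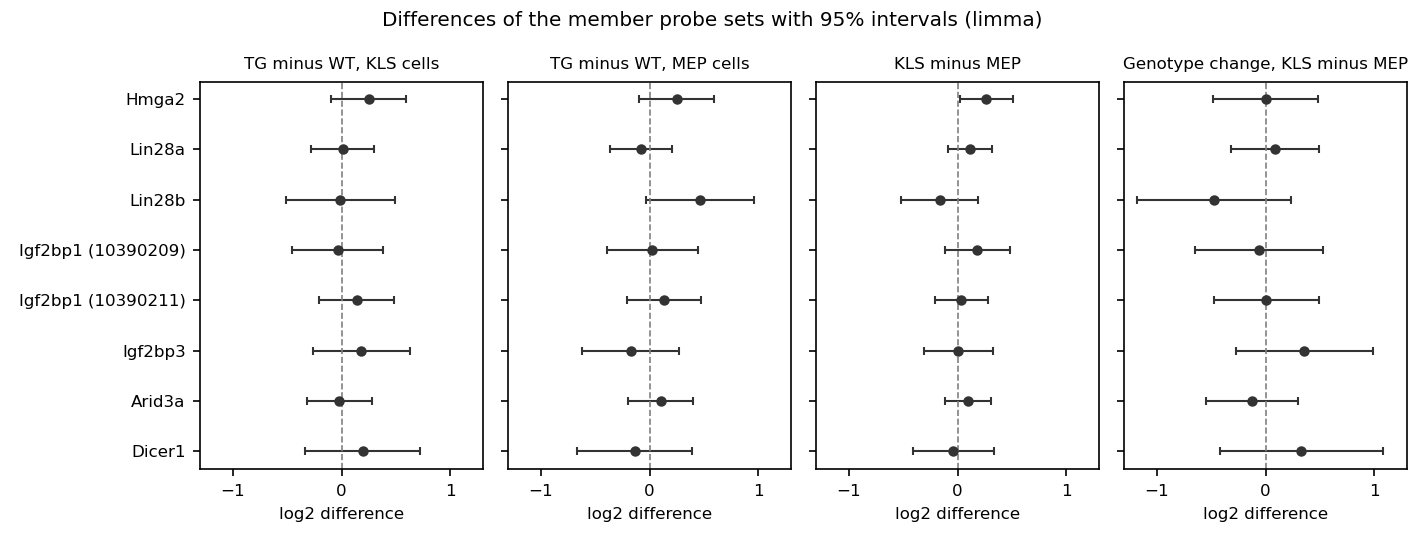
Log2 differences (x axis) of the 8 member probe sets (y axis) in 4 comparisons, with limma's 95% intervals over all 8 arrays. Every interval includes 0 but that of Hmga2 between KLS and MEP cells, 0.02 to 0.50, which did not pass after adjustment over all probe sets.

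The intervals show which sizes the arrays leave room for. In KLS cells the genotype interval of Hmga2 ended at a fold of 1.51, and that of Lin28b in MEP cells at 1.95. The median standard error over all probe sets was 0.168 for a genotype difference within a cell type and 0.119 between cell types, and 2 arrays a group set this precision.

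Genes around the members were taken from 7 lists: let-7 maturation and silencing, other let-7 targets, other HMG genes, genes linked to Hmga proteins, fetal growth genes, other ARID genes and let-7 precursors. They held 119 measured genes, and 0 passed limma's threshold in any of the 5 comparisons. Of the let-7 maturation and silencing list, 24 of 25 were measured. Prkra, a partner protein of Dicer, had the smallest p by genotype in KLS cells. It was at 7.45 and 7.09 in TG and 6.91 and 6.86 in WT KLS cells, a difference of 0.38 ± 0.19. Ago4, an Argonaute protein that carries microRNAs, was at 5.57 and 5.47 in TG and 6.17 and 5.73 in WT MEP cells. The difference was -0.43 ± 0.17 (unadjusted p = 0.0370 in limma), the smallest p of the list there. In this comparison 1 of the 24 was lower and 0 higher at an unadjusted p under 0.05 (background 3.47%). Ran, the GTPase that works with the exporter of precursors, was at -0.24 ± 0.10 between KLS and MEP cells. The list's median genotype difference was 0.05 for KLS and -0.06 for MEP cells, and its median between cell types was -0.02. The genotype median was -0.03 for KLS cells without TG KLS 1 and -0.12 without WT KLS 2, and 0.01 for MEP cells without TG MEP 1.

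Of the other let-7 targets, 32 of 36 were measured. Fndc3a, which encodes a fibronectin domain protein, had the smallest p between cell types, with a log2 difference of 0.99 ± 0.22 and an adjusted p of 0.0816 in limma. It was at 9.01 and 8.77 in TG KLS, 8.89 and 8.34 in WT KLS, 7.43 and 7.64 in TG MEP, and 8.49 and 7.50 in WT MEP cells. The array WT MEP 1 lay within the range of the KLS arrays, and without it the difference was 1.23. With each array left out in turn, the difference ran from 0.74 to 1.23. With all arrays kept, it passed with the replicate number as a block (adjusted p = 0.0471 in limma), though these numbers were not taken as pairs. At an unadjusted p under 0.05, 5 of the 32 were higher and 3 lower in KLS cells (background 7.77% and 6.21%). The list's median between cell types was -0.00054. By genotype, Smarcad1, a chromatin remodeller, was at 0.29 ± 0.15 in KLS cells. Arid3b, a relative of Arid3a, was at 5.52 and 5.48 in TG and 5.97 and 5.74 in WT MEP cells, a difference of -0.36 ± 0.15 (unadjusted p = 0.0401 in limma). The Arid3b probe set was left out when the dimmest were dropped.

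The other HMG genes, 13 of 16 measured, encode HMG-box proteins and nucleosome-binding HMGN proteins. Tfam, which packages mitochondrial DNA, was at 8.75 and 8.44 in TG KLS, 8.25 and 8.47 in WT KLS, 8.997 and 9.013 in TG MEP, and 8.78 and 9.06 in WT MEP cells. All 4 MEP arrays were above the 4 KLS arrays (no overlap in either direction: background 9%). The difference of -0.49 ± 0.12 did not pass (limma adjusted p = 0.102). By genotype in KLS cells Tfam, again the gene with the smallest p, was at 0.23 ± 0.17. Hmgn3 was at 3.89 and 4.20 in TG MEP and 6.14 and 4.14 in WT MEP cells, so WT MEP 1 stood alone. Its TG minus WT difference was -1.09 ± 0.54, which became -0.09 when WT MEP 1 was left out. Leaving out WT MEP 2 instead gave -2.09. The Hmgn3 probe set was left out when the dimmest were dropped.

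Of the genes linked to Hmga proteins, 14 of 16 were measured. Ccna2, the cyclin A gene that Hmga2 is reported to induce, was at 9.89 and 9.86 in TG KLS, 9.92 and 9.99 in WT KLS, 10.34 and 10.31 in TG MEP, and 10.32 and 10.33 in WT MEP cells. MEP and KLS arrays did not overlap (background 9%), and the genotypes were alike in level. KLS minus MEP was -0.41 ± 0.09 with an adjusted p of 0.0677 in limma, and it passed with an intensity trend in the variances (adjusted p = 0.0484 in limma). Ercc1, a DNA repair gene, was at 7.47 and 7.57 in TG and 7.03 and 7.24 in WT KLS cells. The difference was 0.39 ± 0.15 (unadjusted p = 0.0276 in limma), the smallest p of the list there. In this comparison 2 of the 14 were higher and 0 lower at an unadjusted p under 0.05 (background 2.6%). Rb1, which encodes the retinoblastoma protein that Hmga2 binds, was at 9.76 and 9.86 in TG and 10.37 and 9.93 in WT MEP cells. Its difference of -0.33 ± 0.18 became -0.12 when WT MEP 1 was left out and -0.55 when WT MEP 2 was.

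The fetal growth and fetal stem cell list had 14 of 15 genes measured. Igf2, the fetal growth factor, was at 6.07 and 6.18 in TG and 6.29 and 6.53 in WT KLS cells, a difference of -0.28 ± 0.14. Plagl1, an imprinted zinc finger gene, was at 0.35 ± 0.18 by genotype in MEP cells, and Igf2r, the receptor that clears Igf2, was at -0.37 ± 0.13 between KLS and MEP cells. None of these passed. The median over this list was -0.06 for genotype among KLS and 0.05 among MEP arrays, and it was -0.05 between cell types. The MEP value was -0.03 without WT MEP 1.

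All 13 other ARID genes were measured. Arid5b, a chromatin regulator, was at 7.49 and 7.28 in TG KLS, 7.38 and 7.24 in WT KLS, 6.27 and 6.31 in TG MEP, and 7.21 and 5.97 in WT MEP cells. WT MEP 1 lay just below the KLS arrays, and the KLS minus MEP difference of 0.91 ± 0.24 did not pass (limma adjusted p = 0.119). Without WT MEP 1 it was 1.22, and with each array left out in turn it ran from 0.60 to 1.22. Arid4b was at 0.28 ± 0.14 by genotype in KLS cells, and in MEP cells 11 of 13 members of the list were below 0, with a median of -0.12. This rested on WT MEP 1: without it 6 of 13 were below 0 and the median was 0.02.

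**Figure D3:**
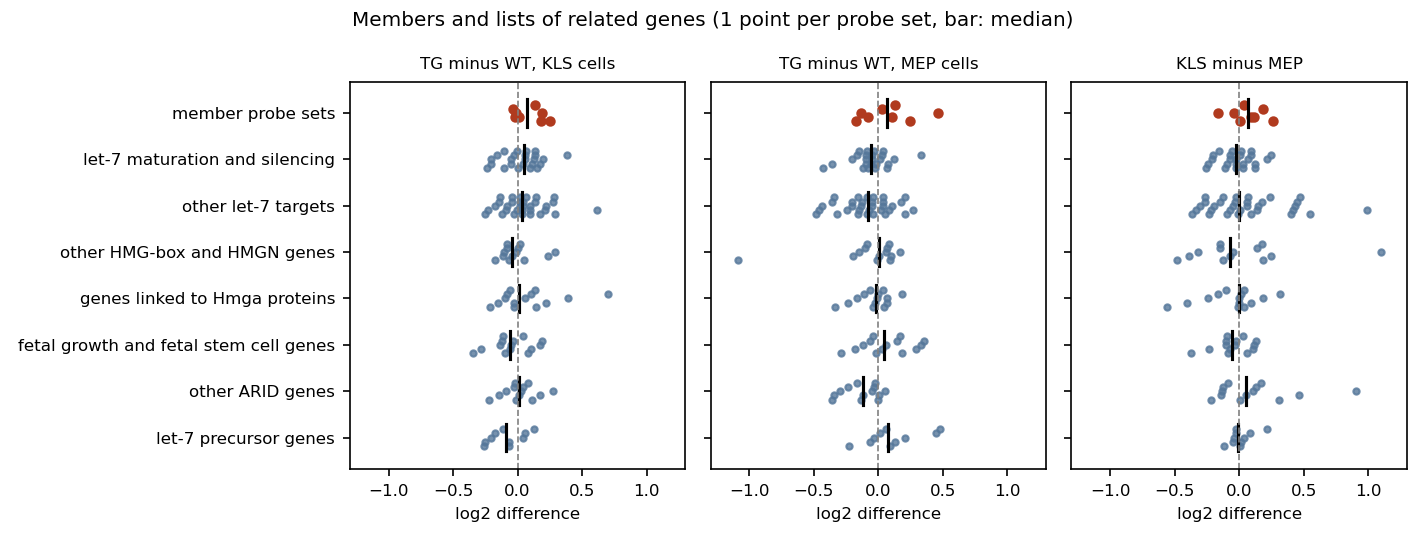
Log2 differences (x axis) of the member probe sets and of the genes of 7 related lists (y axis) in 3 comparisons. Each point is 1 probe set and bars are medians. The medians lie between -0.12 and 0.07, and the points farthest from 0 between cell types are Hmgn3 (1.10), Fndc3a (0.99) and Arid5b (0.91).

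Of 12 let-7 precursor genes, 10 were measured, and none passed. Mirlet7d was at 5.68 and 5.14 in TG MEP and 4.91 and 4.95 in WT MEP cells. Its TG minus WT difference of 0.48 ± 0.20 (unadjusted p = 0.0394 in limma) was not past the threshold. It was 0.21 without TG MEP 1 and 0.75 without TG MEP 2. Mirlet7d had the smallest p of the list there. In this comparison 1 of the 10 was higher and 0 lower at an unadjusted p under 0.05 in limma (background 3.47%). The gene of miR-98, Mir98, was at 4.96 and 4.79 in TG and 5.14 and 5.13 in WT KLS cells, a difference of -0.26 ± 0.14, and between cell types it was at 0.21 ± 0.10. Over the let-7 precursor list the median genotype difference was -0.09 for KLS and 0.07 for MEP cells, and the first was 0.02 without WT KLS 2. The mean log2 level of this list was low, from 4.79 to 4.99 across the arrays. Mirlet7d and Mir98 were left out when the dimmest probe sets were dropped.

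Markers of the sorted cells set these values in context. Of 9 measured stem and progenitor markers 4 were higher in KLS cells by limma (background 0.629%). These were Hlf (2.24 ± 0.10, adjusted p = 0.000266), Cd34 (2.97 ± 0.28, adjusted p = 0.0155), Flt3 (2.55 ± 0.26, adjusted p = 0.0155) and Mecom (0.86 ± 0.11, adjusted p = 0.0190). Of 11 erythroid and megakaryocytic markers, Tfrc (-0.56 ± 0.10) and Rhd (-0.77 ± 0.13) were lower in KLS cells (background 0.193%), both at a limma adjusted p of 0.0494. The megakaryocytic markers Pf4 (1.57 ± 0.37, limma adjusted p = 0.0876) and Itga2b (0.27 ± 0.11, limma adjusted p = 0.326) had positive differences, toward KLS cells, that did not pass. The 11 markers averaged 8.45 and 8.57 in TG MEP and 8.84 and 8.74 in WT MEP cells. In KLS cells they averaged 8.48 and 8.47 in TG and 8.54 and 8.70 in WT. By genotype in MEP cells 7 of 11 were above 0 and 4 below, with a median of 0.03 and the lowest at -1.46. In KLS cells the median was -0.09 and the lowest -0.996. Neutrophil and monocyte markers had a mean log2 level of 9.92 to 10.43 across KLS arrays, and in MEP cells of 9.49 and 8.78 in WT and 8.03 and 8.24 in TG. Of these 13 markers, 4 were higher in KLS cells by limma (background 0.629%). All 13 had a KLS minus MEP difference above 0, with a median of 1.19, against 0.86 for the stem and progenitor list. By genotype in MEP cells 13 of 13 were below 0, with a median of -0.97 against -0.0066 over all probe sets. Of the 13, 8 had an unadjusted p under 0.05 in limma (background 3.47%). The part of these cells in the MEP differences of the members was not tested. Lymphoid markers averaged 7.97 for WT MEP 1 and 6.56 for WT MEP 2, with TG MEP at 6.40 and 6.38 and no KLS array above 7.40. Stromal and endothelial markers averaged 5.60 to 5.80 on the MEP and 6.07 to 6.14 on the KLS arrays, and 1 of the 8 was higher in KLS cells by limma (background 0.629%). The higher levels of Fndc3a, Hmgn3 and Arid5b on WT MEP 1 stood beside higher lymphoid, neutrophil and stem cell markers on that array. Erythroid and megakaryocytic markers (8.84 on WT MEP 1 and 8.74 on WT MEP 2) and stromal markers (5.80 and 5.68) were also higher there, by less. The part of any of these cells in those levels was not tested. In bulk samples of this kind, fewer cells of a type and less RNA per cell cannot be told apart.

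**Figure D4:**
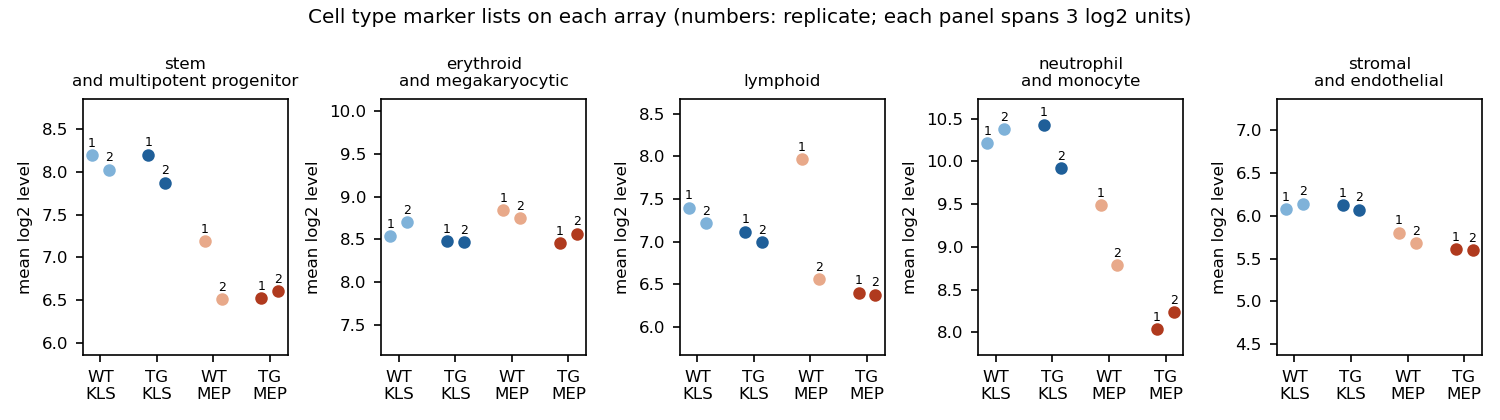
Mean log2 level (y axis) of 5 lists of cell type markers on each array, by group (x axis), with the replicate number beside each point. WT MEP 1 stands above WT MEP 2 for lymphoid (7.97 and 6.56) and for stem and progenitor markers (7.19 and 6.51).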

How the data were processed

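The deposited table holds 35556 probe set values per array on a log2 scale, read as log2 from their range of 1.71 to 14.0. Per the submitters' processing notes, the authors worked with Affymetrix Expression Console. The sources used here state neither its version nor how probe sets were summarized and arrays normalized. Array medians lay between 6.34 and 6.45, and arrays were quantile normalized over all probe sets. Of the probe sets, 21789 had a single symbol in the platform annotation, and each was tested on its own. Another 1621 had several symbols and 12146 were not listed. A RefSeq table held the Entrez identifier of 21698 and changed 0 symbols.

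A mean per group was fitted over the 8 arrays with lmFit and eBayes of limma 3.58.1 (R 4.3.3), giving 4 residual and 4.27 prior degrees of freedom. Tests were two-sided and adjusted by Benjamini-Hochberg over all 21789 probe sets, with a threshold of 0.05. Where a difference is printed with no adjusted p, that p was above the threshold. Preparations were independent pools, so p-values measure the spread between pools. The fit was tested on simulated arrays with changes planted between cell types, none of them by genotype. The number of arrays limits the precision.

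All member probe sets were described. From each related list the gene with the smallest p by genotype within a cell type was named, and between cell types up to 4 past the threshold or else the gene with the smallest p. List genes with several probe sets took the one with the highest mean. Genes like Hmga2 were ranked by Pearson r among probe sets with an SD of at least 0.2, and clone or model names were skipped. Members and lists were chosen with earlier results of these data known. Each array was left out in turn, each cell type was fitted alone, and the replicate number was added as a block. Other alternatives were no normalization, centring on the median, 1 probe set a gene, dropping the dimmest 30%, and limma's intensity trend, robust option and weights.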

Additional observations from a re-analysis of the deposited data

How the results depend on the processing

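Under all 18 alternatives, 1 of them chosen after seeing the data, 0 member probe sets were called in any comparison, and their smallest adjusted p in limma was 0.242. Of 676 member values under an alternative 623 kept their direction, and of the Hmga2 differences those by genotype and between cell types all did. These counts include values that could not change, so they do not measure robustness. An intensity trend or the replicate block left each difference as it was. Leaving out a KLS array left the genotype difference in MEP cells as it was, and the reverse. For the 53 values that changed sign, the cause was not tested. As deposited, the averaged genotype difference of Igf2bp1 (10390209) was 0.069 and the interactions of Hmga2 and Igf2bp1 (10390211) were 0.036 and -0.12. With median centring, these were 0.070, 0.093 and -0.066, Arid3a was at 0.0093 by genotype in KLS cells, and Igf2bp3 at -0.0097 between cell types.

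With 1 array left out, genotype differences in KLS cells ran from -0.085 to 0.041 for Arid3a, -0.15 to 0.53 for Dicer1, -0.18 to 0.10 for Igf2bp1 (10390209), -0.067 to 0.43 for Igf2bp3, -0.038 to 0.058 for Lin28a and -0.090 to 0.068 for Lin28b. In MEP cells that of Igf2bp1 (10390209) ran from -0.14 to 0.19. Averaged, they ran from -0.14 to 0.20 for Dicer1, -0.086 to 0.075 for Igf2bp1 (10390209) and -0.12 to 0.13 for Igf2bp3. Between cell types they ran from -0.21 to 0.13 for Dicer1, -0.025 to 0.094 for Igf2bp1 (10390211), -0.12 to 0.13 for Igf2bp3 and -0.33 to 0.0043 for Lin28b. Interactions ran from -0.0092 to 0.67 for Dicer1, -0.13 to 0.13 for Hmga2, -0.22 to 0.099 for Igf2bp1 (10390209) and -0.11 to 0.13 for Igf2bp1 (10390211).

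Over all probe sets, the 179 called between KLS and MEP cells became 100 with median centring, 319 with 1 probe set a gene, 297 with an intensity trend and 404 with the replicate block. With 1 array left out they ran from 1, without TG MEP 1 or TG MEP 2, to 626 without WT MEP 1, with 13 without TG KLS 1, 54 and 57 without WT KLS 1 and 2, and 66 without WT MEP 2. With WT MEP 2 left out, which leaves WT MEP 1 alone in its group and assumed to vary like the others, 117 probe sets were called by genotype in MEP cells, 31 averaged over cell types and 7 for the interaction. Leaving out each of the other arrays gave 0 for these 3. Deviations of same-numbered arrays correlated from -0.33 to 0.41, below 0 for TG MEP with each of the other groups, so the numbers were not taken as pairs. With the TG MEP numbers crossed, the alternative added last, 1018 of all 21789 probe sets were called between cell types and 0 by genotype. Of the related lists, 3 of 32 other let-7 targets, 2 of 14 genes linked to Hmga proteins and 1 of 13 other ARID genes were called between cell types. This crossing was chosen after seeing the data, so its calls are no separate support. With 1 array left out, genotype differences of genes from the related lists ran from 0.20 to 0.56 for Prkra, 0.12 to 0.45 for Smarcad1, 0.078 to 0.39 for Tfam and -0.41 to -0.16 for Igf2 in KLS cells. In MEP cells they ran from -0.65 to -0.21 for Ago4 and from 0.22 to 0.49 for Plagl1.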
